A study of Mus musculus with 12 samples.

Results

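Dscaml1, Car10, Gpr22, Gpm6b, Anks1b and Fam107a are 6 genes of the nervous system whose signals were high in MYCN-driven tumors of the pituitary and low in MYCN-driven tumors of the pancreas. They were chosen for that contrast in these same arrays, so their differences between the sites are given as a description, with no test. All probe sets that the platform annotates to the 6 symbols were taken, which gave 22 of the 45037 probe sets and 6 of the 18193 genes measured. The choice was not made on how the several probe sets of a gene compared with each other, or on how the relatives and binding partners of the 6 genes behaved. How evenly the signals were spread over the tumors of each site is also described, but choosing high against low signals can favor genes that are even within a site.

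The tumors arose in LSL-MYCN;hGFAP-Cre mice, in which Cre recombinase driven by the human GFAP promoter removes a stop cassette and switches on MYCN and luciferase, on a mixed genetic background. RNA of 9 pancreatic tumors (numbered 1 to 5 and 9 to 12) and 3 pituitary tumors (numbered 6, 7 and 8) of untreated animals was hybridized to Affymetrix mouse arrays, 1 array per tumor. The labels call the 3 tumors brain tumors, and the study places them at the pituitary gland. Mice of this genotype could carry tumors at both sites, and the age and sex of the animals and the mouse behind each tumor were not given in the labels, so spreads and p-values describe these 12 tumors only. All groups carried both transgenes, and arrays of normal pancreas or normal pituitary were not analysed here.

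The hormone transcripts Gh and Prl were high in all 3 tumors labelled brain. Gh (growth hormone) read 14.65, 14.80 and 14.87 in tumors 6, 7 and 8 on the log2 scale, against 5.64 to 6.27 in the pancreatic tumors. Of 18 anterior pituitary markers, 13 passed the test between the sites as higher in the pituitary tumors, as did 4.5% of all genes. Not every hormone gene was high in these tumors, since Lhb (luteinizing hormone) read 5.43, 6.45 and 5.39 and Fshb (follicle-stimulating hormone) 3.27, 7.78 and 6.07 in tumors 6, 7 and 8. Array medians lay between 5.45 and 5.69 in the pancreatic and between 5.53 and 5.61 in the pituitary tumors. Since the file gives no detection call, a signal at or below the median of its array was taken as near background, and a difference measured from such a signal as a lower bound. In these bulk tumors, fewer cells of a type and less RNA per cell cannot be told apart.

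Neurons and glia keep contact through adhesion proteins of the immunoglobulin class, through neurexins and their secreted or membrane-bound ligands, and through scaffolds that hold receptors beneath the synaptic membrane. Dscaml1 is a homophilic adhesion protein of the Down syndrome cell adhesion molecule family, and Car10 is a secreted member of the carbonic anhydrase family that lacks enzyme activity and binds neurexins. Gpr22 is an orphan G protein-coupled receptor known from brain and heart, Gpm6b is a membrane-spanning proteolipid of neurons and glia, Anks1b is an ankyrin repeat scaffold of the postsynaptic density, and Fam107a is an actin-binding protein that is abundant in astrocytes and is induced by stress and glucocorticoids.

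The 6 genes lie on 6 chromosomes in GRCm38.p6: Dscaml1 at chr9:45427433-45753713, Car10 at chr11:93096805-93601751, Gpr22 at chr12:31706867-31713883, Gpm6b at chrX:166238943-166389033, Anks1b at chr10:89872915-90973300 and Fam107a at chr14:8296270-8317607. RefSeq promoter windows of the same build, from 250 bases before to 50 bases after a listed start, were available for 5 of them, and Gpr22 and Gpm6b each had exactly 1 listed start. Both of these promoters are shown because the genes read high in the same tumors and their promoters differ in base composition and motifs. The Gpr22 window is chr12:31713834-31714133 on the minus strand and the Gpm6b window is chrX:166238693-166238992 on the plus strand. Capitals mark matches, on either strand, to the TATA box (TATAAA), the CCAAT box (CCAAT), the GC box (GGGCGG), the E-box (CACGTG) or the palindrome of a cyclic AMP response element (TGACGTCA), motifs that were picked after the sequences had been read.
Gpr22: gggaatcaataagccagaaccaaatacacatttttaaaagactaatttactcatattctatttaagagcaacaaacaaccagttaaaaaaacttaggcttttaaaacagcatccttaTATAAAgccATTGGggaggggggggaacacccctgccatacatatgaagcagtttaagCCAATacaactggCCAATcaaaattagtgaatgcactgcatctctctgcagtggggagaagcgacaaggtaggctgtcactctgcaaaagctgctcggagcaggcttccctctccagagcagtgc
Gpm6b: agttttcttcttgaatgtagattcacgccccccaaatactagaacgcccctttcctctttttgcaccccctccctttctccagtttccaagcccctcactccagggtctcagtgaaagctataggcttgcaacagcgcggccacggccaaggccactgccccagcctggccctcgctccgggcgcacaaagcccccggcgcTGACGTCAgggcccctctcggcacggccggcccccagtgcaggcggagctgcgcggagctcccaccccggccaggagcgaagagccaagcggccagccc
The Gpr22 promoter held 2 CpG dinucleotides and 43% G and C, with a TATA box at position -133 from the start and 3 CCAAT boxes at -124, -75 and -62. The Gpm6b promoter held 20 CpG and 65.3% G and C, with no TATA or CCAAT box and with TGACGTCA at -49. Over 32851 mouse promoters of this length the median was 7 CpG and 52.7% G and C, and the TATA box was found in 13.6%, the CCAAT box in 37.4%, the GC box in 35.7%, the E-box in 7.15% and the response element in 1.79%. The 2 starts of Car10 held 22 and 27 CpG with 2 and 5 GC boxes, the 5 starts of Anks1b between 3 and 45 CpG, and the 3 starts of Fam107a between 7 and 15. The E-box was in no window of the 5 genes. These matches describe the letters only.

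All 3 pituitary tumors read above all 9 pancreatic tumors at 16 of the 22 probe sets, a pattern found at 4.02% of all probe sets, and the groups overlapped at the other 6. No probe set of the 6 genes had all pituitary tumors below all pancreatic tumors, a pattern found at 3.86% of all. Since the genes were selected on this contrast, these counts say only how far the probe sets of each gene go together. All probe sets of Gpr22 (2), Gpm6b (3) and Fam107a (3) separated the sites, as did 5 of 7 for Anks1b, 2 of 5 for Dscaml1 and 1 of 2 for Car10. The tables used here do not say which part of a transcript each probe set reads.

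**Figure D1:**
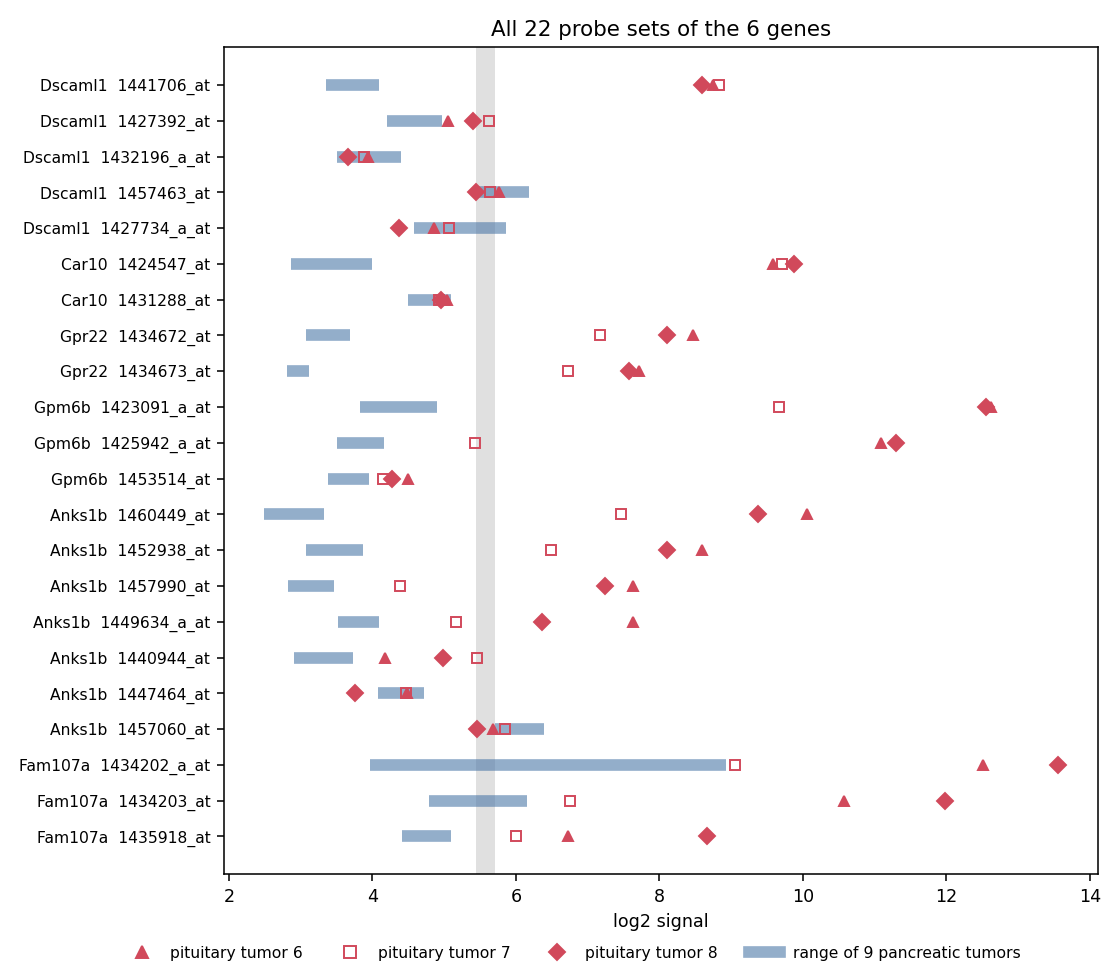
Log2 signal (horizontal axis) of each of the 22 probe sets, with the range of the 9 pancreatic tumors as a bar and pituitary tumors 6, 7 and 8 as a triangle, an open square and a diamond. The grey band spans the array medians (5.45 to 5.69). The 3 pituitary symbols lie together at the leading probe sets of Dscaml1 and Car10, and the square of tumor 7 lies left of the other two at every probe set of Gpr22, Fam107a and Gpm6b, at 4 of Anks1b and, near background, at 1431288_at of Car10.

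The adhesion gene Dscaml1 was read most strongly by probe set 1441706_at, with 8.74, 8.83 and 8.59 in pituitary tumors 6, 7 and 8 (8.72 ± 0.12, SD, n = 3). The 9 pancreatic tumors read from 3.35 to 4.09 with a median of 3.61 (3.65 ± 0.20, SD, n = 9). The lowest pituitary tumor lay 4.51 above the highest pancreatic tumor, and the means differed by 5.07, or 33.6-fold. The 3 pituitary tumors thus lay within 0.24 of each other. Probe set 1427392_at separated the sites by a far smaller margin, with 5.06, 5.62 and 5.40 against 4.20 to 4.97. The other 3 probe sets of Dscaml1 overlapped between the sites, with differences of -0.11, -0.21 and -0.37 and signals between 3.50 and 6.18 in the 12 tumors. A mean over all 5 probe sets would give Dscaml1 a difference of 1.05 in place of 5.07.

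Car10, the neurexin ligand, was as even. Probe set 1424547_at read 9.58, 9.71 and 9.87 in the pituitary tumors (9.72 ± 0.14, SD, n = 3) and 2.86 to 3.99 with a median of 3.21 in the pancreatic tumors (3.25 ± 0.33, SD, n = 9). The means differed by 6.48, and the gap between the groups was 5.59. The second probe set, 1431288_at, read 5.04, 4.93 and 4.96 against 4.49 to 5.10, which is at or below the array median in all 12 tumors. It carried no difference (0.05).

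Gpr22, the orphan receptor, was measured by 2 probe sets with the same ordering of the pituitary tumors. At 1434672_at tumors 6, 7 and 8 read 8.47, 7.17 and 8.11 (7.92 ± 0.67, SD, n = 3) and the pancreatic tumors 3.07 to 3.68 with a median of 3.26 (3.28 ± 0.21, SD, n = 9). At 1434673_at they read 7.72, 6.73 and 7.57 against 2.80 to 3.11. Tumor 7 was the lowest of the 3 at both, by 1.12 and 0.92 below the mean of tumors 6 and 8. The differences between the sites were 4.64 and 4.41.

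Gpm6b, the proteolipid, read 12.62 and 12.55 in pituitary tumors 6 and 8 and 9.67 in tumor 7 at probe set 1423091_a_at (11.61 ± 1.68, SD, n = 3). The pancreatic tumors read 3.82 to 4.90 with a median of 4.08 (4.18 ± 0.38, SD, n = 9). Tumor 7 therefore lay 2.92 below the mean of the other two and still 4.77 above the highest pancreatic tumor. At 1425942_a_at the drop was larger. Tumors 6 and 8 read 11.09 and 11.30, whereas tumor 7 read 5.43, just below the median of its array and 5.77 below the mean of the other two. The pancreatic tumors read 3.51 to 4.16 at this probe set. The third probe set, 1453514_at, read 4.49, 4.15 and 4.27 in the pituitary and 3.38 to 3.96 in the pancreatic tumors, near background in all 12.

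Anks1b, the postsynaptic scaffold, has 7 probe sets, of which 4 read well above background in pituitary tumors 6 and 8 and 5 separated the sites. The strongest, 1460449_at, read 10.06, 7.47 and 9.37 in tumors 6, 7 and 8 (8.97 ± 1.34, SD, n = 3) and 2.48 to 3.32 with a median of 2.90 in the pancreatic tumors (2.88 ± 0.25, SD, n = 9). The order was the same at 1452938_at (8.59, 6.48 and 8.11), 1457990_at (7.63, 4.38 and 7.24) and 1449634_a_at (7.63, 5.16 and 6.37), with tumor 6 highest and tumor 7 lowest. At the latter pair of probe sets tumor 7 was below the median of its array. Probe set 1440944_at had the opposite order, with 4.17, 5.46 and 4.98, but all 3 values were at or below the array median. The other 2 probe sets overlapped between the sites (differences of -0.16 and -0.35).

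Fam107a, the actin-binding protein of astrocytes, was also read well above background in some pancreatic tumors. At 1434202_a_at pituitary tumors 6, 7 and 8 read 12.51, 9.05 and 13.56 (11.71 ± 2.36, SD, n = 3). The pancreatic tumors spread from 3.96 in tumor 9 over a median of 5.27 to 8.93 in tumor 5 (5.73 ± 1.71, SD, n = 9), and tumor 1 read 8.01. Pituitary tumor 7 thus lay only 0.12 above pancreatic tumor 5, although the means of the sites differed by 5.98. At 1434203_at the pancreatic tumors spread from 4.79 to 6.16, with tumor 5 again highest and tumor 1 next (5.83). At 1435918_at they read 4.42 to 5.10, all at or below the array median. In the pituitary tumors these probe sets read 10.58, 6.75 and 11.97, and 6.73, 6.00 and 8.66, again lowest in tumor 7. In 5 of 9 pancreatic tumors the leading probe set was at or below the array median, against 9 of 9 for the leading probe sets of the other 5 genes. Low pancreatic signals were part of the choice of all 6 genes.

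**Figure D2:**
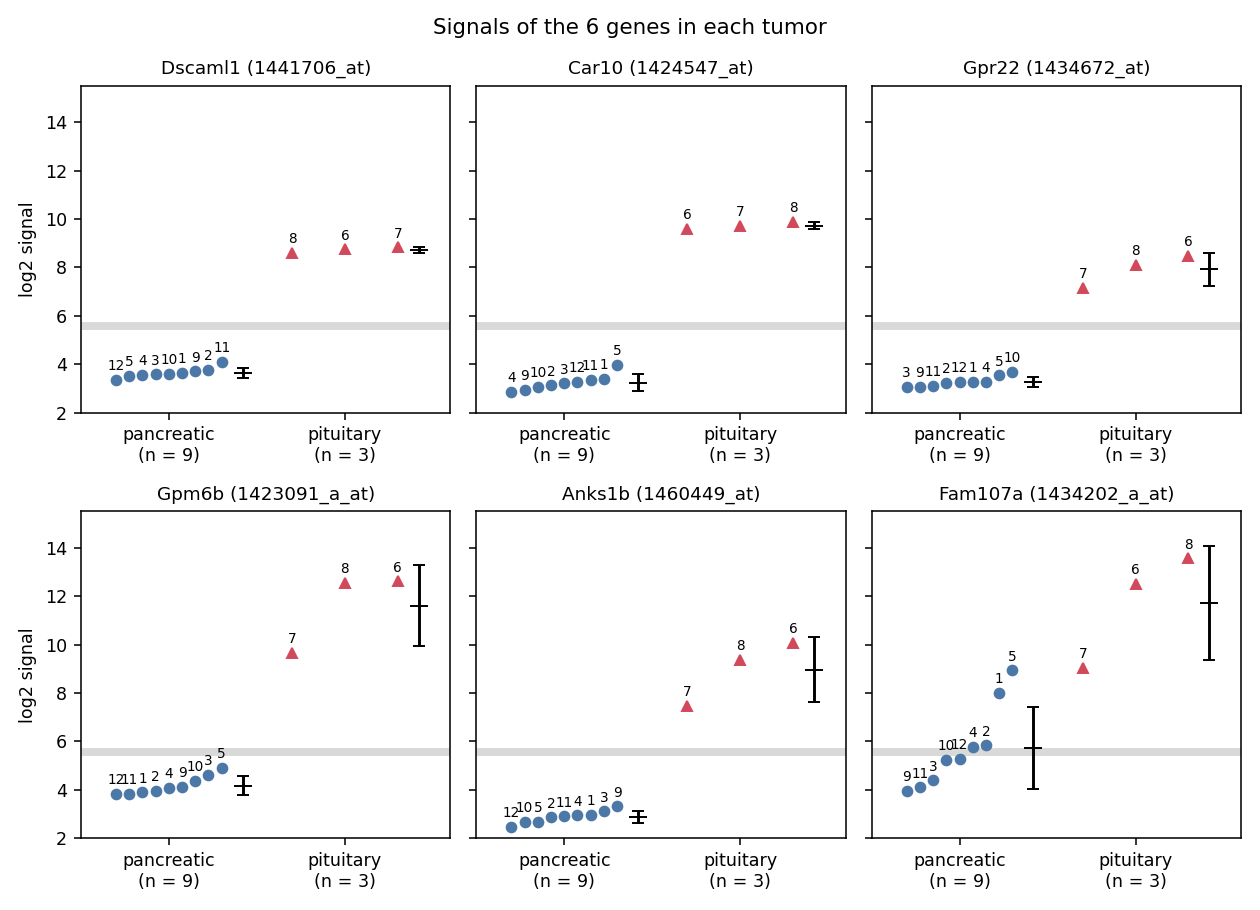
Log2 signal (vertical axis) of the leading probe set of each gene in the 9 pancreatic tumors (circles) and the 3 pituitary tumors (triangles), with tumor numbers above the symbols, the mean and SD of each group as a cross with bars, and the array medians (5.45 to 5.69) as a grey band. Dscaml1 and Car10 were even over tumors 6, 7 and 8, tumor 7 was lowest for the other 4 genes, and Fam107a reached 8.93 and 8.01 in pancreatic tumors 5 and 1.

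The 6 genes differed in how far tumor 7 lay below the other pituitary tumors. The mean of tumors 6 and 8 minus tumor 7 was -0.16 for Dscaml1 and 0.01 for Car10, but 1.12 for Gpr22, 2.25 for Anks1b, 2.92 for Gpm6b and 3.98 for Fam107a. Over all probe sets this quantity had a median of -0.08 and ran from -0.86 at the 5th to 1.15 at the 95th percentile, so that Anks1b, Gpm6b and Fam107a lay beyond the upper of these limits and Gpr22 just within it. With 3 tumors this is a description of tumor 7.

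The marker lists of astrocytes, oligodendrocytes and neurons were also lowest in tumor 7 among the pituitary tumors. The mean log2 signal of 9 astrocyte markers was 10.79, 6.63 and 10.94 in tumors 6, 7 and 8, against 5.20 to 6.92 in the pancreatic tumors, and 4 of the 9 were at or below the array median in tumor 7, against 0 in tumors 6 and 8. The highest pancreatic mean, that of tumor 2, held Aldh1l1 at 12.17, a marker that read 5.17 in pituitary tumor 7. Among the astrocyte markers, Gjb6 (a connexin of astrocytes) read 2.98 and Slc1a3 (a glutamate transporter of astrocytes) 5.07 in tumor 7, near background. Slc1a2 (the other main glutamate transporter) read 9.26 there and Aqp4 (the water channel of astrocyte endfeet) 7.01. Gfap read 8.02, 5.64 and 6.60 in tumors 6, 7 and 8, against 5.67 to 6.32 in the pancreatic tumors. Its difference of 0.86 did not pass (limma adjusted p = 0.198). The mean of 8 oligodendrocyte markers was 9.28, 5.49 and 8.53 in tumors 6, 7 and 8 and 5.11 to 5.68 in the pancreatic tumors, with 5 of 8 at or below the median in tumor 7. Mbp, one of these 8, was not lowest there (8.97, 9.26 and 8.50). The mean of 11 neuron markers was 10.28, 6.84 and 10.20 against 5.36 to 7.43, with 4 of 11 at or below the median in tumor 7. The 8 hypothalamic neuron markers averaged 7.43, 5.32 and 5.54 against up to 6.29 in the pancreatic tumors, so tumor 8 was close to tumor 7. The 18 anterior pituitary markers went the other way, at 8.30, 9.67 and 7.97 against 5.06 to 5.45. Tumors 6 and 8 exceeded tumor 7 by a median of 4.13 over the astrocyte markers (from 1.67 to 7.09), 3.04 over the oligodendrocyte markers and 2.25 over the neuron markers, and differed from it by -1.51 over the anterior pituitary markers. Single markers stayed well above background in tumor 7, such as Snap25 (11.72), Syt1 (11.76) and Aldoc (9.95). All of these were also high in pancreatic tumors, with 6.65 to 11.49 for Snap25, 8.21 to 11.57 for Syt1 and 7.02 to 10.71 for Aldoc. The part of such cell types in the signals of the 6 genes was not tested. Car10 and Dscaml1 were as high in tumor 7 as in tumors 6 and 8. The differences from the pancreatic mean with only tumor 7 kept were 5.18 for Dscaml1, 6.47 for Car10, 3.89 for Gpr22, 5.49 for Gpm6b, 4.59 for Anks1b and 3.33 for Fam107a.

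**Figure D3:**
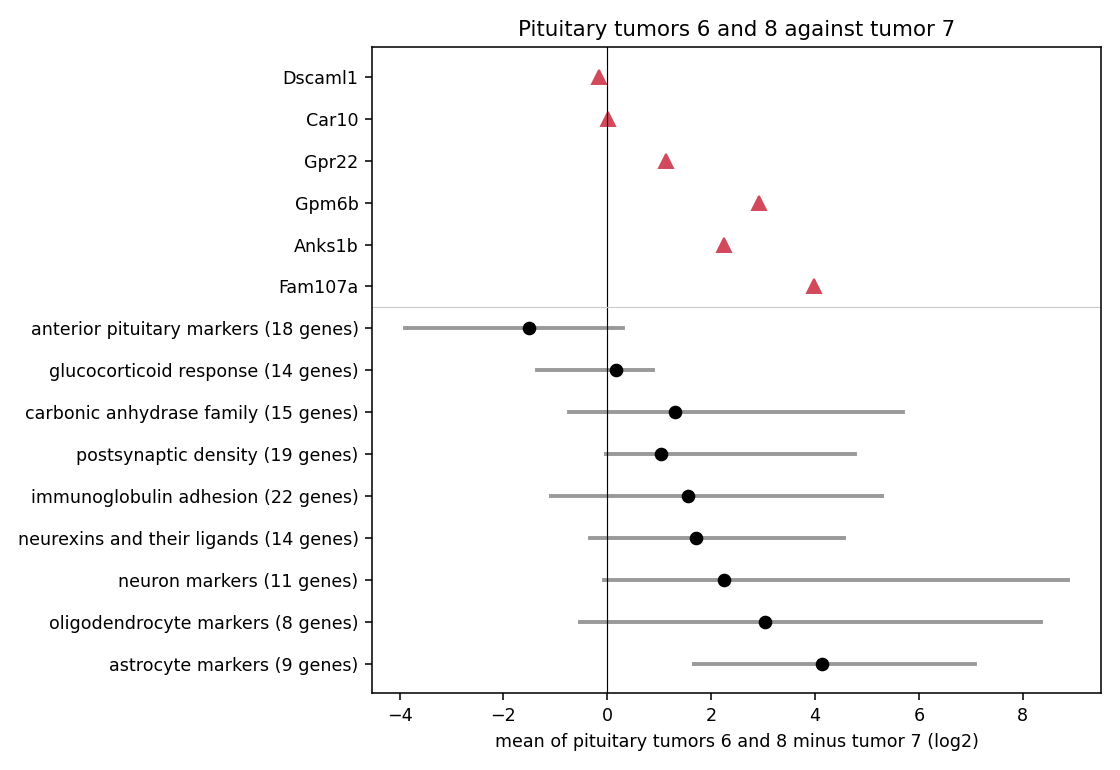
Mean log2 signal of pituitary tumors 6 and 8 minus tumor 7 (horizontal axis) for the leading probe set of each of the 6 genes (triangles) and for 9 gene lists (circle for the median gene, line from the lowest to the highest gene). Dscaml1 (-0.16) and Car10 (0.01) lay near 0, Fam107a (3.98) lay near the median of the astrocyte markers (4.13), and the anterior pituitary markers had a median of -1.51.

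In the pancreatic tumors, the astrocyte mean was 5.51 in tumor 5 and 5.30 in tumor 1, the pair with high Fam107a. It was highest in tumor 2 (6.92), where Fam107a read 5.84. Aldh1l1 weighed heavily on that mean, with 12.17 in tumor 2 against 4.25 to 8.79 in the other pancreatic tumors. Aqp4 (7.61) and Slc1a2 (7.14) were also highest in tumor 2, whereas Gjb6 read 3.17 there. Among genes of other lists, Car3 (14.69), Car5a (8.65) and Hsd11b1 (12.42) were highest in tumor 2 as well. The study found liver involvement in some animals with pancreatic tumors. The part of liver tissue in the signals of tumor 2 was not tested. The oligodendrocyte mean was 5.64 in tumor 5, the second highest, and 5.37 in tumor 1. Tumor 5 had the highest pancreatic signals of the astrocyte markers Gja1 (10.77) and Slc1a3 (4.43, below its array median). A glucocorticoid response list of 14 genes was taken because glucocorticoids induce Fam107a. Besides response genes it holds the receptor genes Nr3c1 and Nr3c2 and the enzyme gene Hsd11b1. Its mean was 9.38 in tumor 5, the second highest, and 9.00 in tumor 1, over a pancreatic range of 8.65 to 10.17. Klf9, a transcription factor gene of that list, was highest in tumor 5 (13.01). The part of these signals in that of Fam107a was not tested. Pancreatic tumor 5 also read Prl (prolactin) at 8.22, with the other 8 between 4.36 and 5.74. It had the highest pancreatic signals of Car10 (3.99) and Gpm6b (4.90), both still below its array median. Gpr22 (3.54) lay above its pancreatic median there, but Dscaml1 (3.52) and Anks1b (2.67) lay below theirs. Of the 18 anterior pituitary markers, 10 were at or below the array median in tumor 5, against 9 to 12 in the other pancreatic tumors. Their mean in tumor 5 was 5.45, the highest of the pancreatic tumors.

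Of the 45 measured relatives of the 6 genes, 2 carbonic anhydrases and 6 orphan receptors passed the test as higher in the pituitary tumors. Fam107b passed as lower, and the others did not pass. For background, limma called 3.45% of all probe sets higher in the pituitary and 1.18% higher in the pancreatic tumors at an adjusted p of 0.05. Counted by genes, 4.5% of the 18193 genes were higher in pituitary and 1.61% higher in pancreatic tumors, and the median difference over all genes was -0.03. Dscam, the paralog of Dscaml1, read 7.60, 7.47 and 6.38 in the pituitary tumors and 6.62 to 7.87 in the pancreatic tumors, well above background at both sites, with a difference of -0.28 (SE 0.29, limma adjusted p = 0.627). Anks1, the paralog of Anks1b, read 7.44, 7.56 and 7.42 against 7.23 to 8.36 (difference -0.40, SE 0.19, limma adjusted p = 0.274). Fam107b was lower in the pituitary tumors. It read 7.32, 8.05 and 10.51 in tumors 6, 7 and 8 and 9.90 to 11.20 in the pancreatic tumors, a difference of -2.06 (SE 0.53, limma adjusted p = 0.046), and leaving out any of 9 tumors (1, 3, 4, 6, 7, 9, 10, 11 or 12) ended the call, with adjusted p up to 0.255. Gpm6a, the proteolipid closest to Gpm6b, read 13.58, 9.82 and 13.10 with tumor 7 lowest as for Gpm6b, but it was also high in several pancreatic tumors (5.42 to 10.54). Its difference of 3.72 (SE 1.07) had a limma adjusted p of 0.0727, and without tumor 7 it was 4.89 with an adjusted p of 0.0276.

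**Figure D4:**
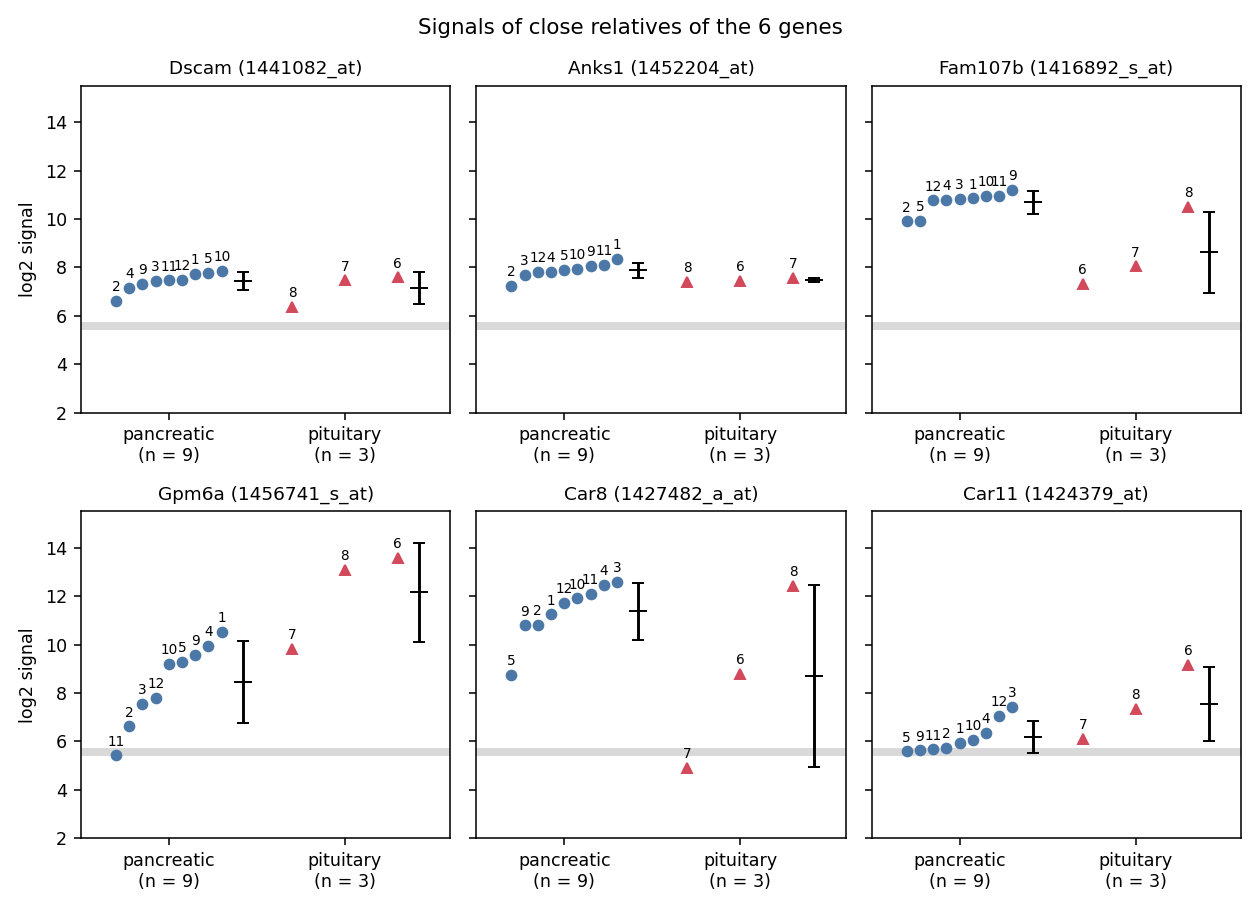
Log2 signal (vertical axis) of 6 relatives in the 9 pancreatic tumors (circles) and the 3 pituitary tumors (triangles), with tumor numbers, group mean and SD as a cross with bars, and the array medians as a grey band. The groups overlapped for all 6, and Fam107b was lower in pituitary tumors 6 (7.32) and 7 (8.05) than in any pancreatic tumor.

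The carbonic anhydrase family, to which Car10 belongs by sequence, had a median difference of 0.14 over its 15 other measured members. By limma 2 were higher in the pituitary tumors and 0 in the pancreatic tumors, beside 4.5% and 1.61% of all genes. These were Car12 (2.24, adjusted p = 0.00144) and Car2 (3.37, adjusted p = 0.0319), the cytosolic enzyme also known from oligodendrocytes, whose call was lost without tumor 6, 8, 9, 10 or 12. The other 2 members that lack enzyme activity, Car8 and Car11, did not pass the test. Car8 read 8.79, 4.91 and 12.43 in tumors 6, 7 and 8 against 8.74 to 12.58 (difference -2.67, SE 1.21, limma adjusted p = 0.25), and without tumor 8 its difference was -4.53 with an adjusted p of 0.0491. Car11 read 9.15, 6.12 and 7.34 against 5.59 to 7.42 (difference 1.37, SE 0.55, limma adjusted p = 0.195). The even signal of Car10 over tumors 6, 7 and 8 stood beside a family median of 1.30 for tumors 6 and 8 minus 7.

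Of 26 other orphan receptors of the class of Gpr22, 6 were higher in the pituitary tumors and 0 in the pancreatic tumors. The shares over all genes were 4.5% and 1.61%, and the list had a median difference of 0.61. The 4 with the largest differences were Gpr37l1 (3.45, limma adjusted p = 0.0373) and Gpr37 (2.28, adjusted p = 0.049), receptors known from glia, Gpr12 (2.69, adjusted p = 2.53e-05) and Gpr162 (2.07, adjusted p = 0.00105). Gpr12 read 8.11, 8.59 and 7.81 in tumors 6, 7 and 8, with tumor 7 not lowest. Gpr37l1 read 9.84, 5.42 and 11.28, and Gpr37 read 8.02, 4.32 and 7.39, both near background in tumor 7, and the calls of both were lost when most of the tumors were left out in turn (10 of 12 for Gpr37l1 and 11 of 12 for Gpr37).

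Genes whose proteins are partners of the members were also counted. Over all genes, 4.5% were higher in the pituitary and 1.61% in the pancreatic tumors. Of 14 neurexins and neurexin ligands, the partners of Car10 and their neighbours, 3 were higher in the pituitary tumors and 0 in the pancreatic tumors by limma, with a median difference of 1.13. They were Nrxn3 (4.06, adjusted p = 0.00103), Lrrtm2 (3.11, adjusted p = 0.00762) and Cbln2 (2.26, adjusted p = 0.00959). Nrxn3 read 10.59, 8.50 and 11.52 in tumors 6, 7 and 8 and so was lowest in tumor 7, unlike Car10. The call of Lrrtm2 was lost without tumor 6 or 8.

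Of 19 genes of the postsynaptic density, where Anks1b resides, 5 were higher in the pituitary tumors and 0 in the pancreatic tumors. The shares over all genes were 4.5% and 1.61%, and the list had a median difference of 0.86. The 4 with the largest differences by limma were the scaffold genes Dlg2 (3.09, adjusted p = 0.00418), Homer2 (3.01, adjusted p = 0.00222) and Homer1 (1.73, adjusted p = 0.0174) and the glutamate receptor subunit gene Grin2c (1.64, adjusted p = 0.0129). Dlg4, which encodes PSD-95, read 10.30, 8.97 and 10.02 against 6.71 to 10.18 and had a difference of 0.51 (adjusted p = 0.667). The call of Homer1 was lost without tumor 6 or 8.

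Of 22 adhesion genes of the immunoglobulin class of Dscaml1, 8 were higher in the pituitary tumors and 0 in the pancreatic tumors. The shares over all genes were 4.5% and 1.61%, and the list had a median difference of 1.21. Nrcam (5.22, limma adjusted p = 0.00015), Cntn1 (5.03, adjusted p = 0.0181), Chl1 (4.42, adjusted p = 0.00549) and Negr1 (4.07, adjusted p = 0.00567) had the largest differences. Cntn1 lost its call without tumor 6 or 8. Nrcam read 10.17, 6.71 and 9.83 and Chl1 9.97, 5.42 and 10.21 in tumors 6, 7 and 8, again with tumor 7 lowest, whereas Negr1 read 10.20, 9.39 and 9.77. Of the 14 genes of the glucocorticoid response list, 2 were higher in the pituitary tumors and 0 in the pancreatic tumors, with a median difference of 0.99. These were Nr3c2 (2.62, limma adjusted p = 0.0223), the mineralocorticoid receptor gene, whose call was lost without tumor 6 or 8, and Dusp1 (1.54, adjusted p = 0.00969), a phosphatase gene. With tumors 6 and 8 both left out, the counts higher in the pituitary tumor were 0 for the carbonic anhydrases, the neurexin group and the postsynaptic density, 2 for the orphan receptors, 3 for the adhesion genes and 1 for the glucocorticoid response.

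Genes with the most similar profile were sought for each member among 6941 genes whose signal spanned at least 2 on the log2 scale, by Pearson's r over the 12 tumors. The tumors form 2 separate groups by site, so that this r mainly ranks genes by a clean step between the sites, and the 12 arrays share their normalization. For Dscaml1 and Car10 the list was led by Gabrb1, a subunit gene of the GABA receptor (r = 0.996 and 0.994), and Gh (0.996 for both), with Brinp3 (0.989) and Ugt8a (0.990) next. Gabrb1 read 10.41, 10.52 and 10.37 in tumors 6, 7 and 8 and 4.18 to 4.83 in the pancreatic tumors. Gpr22 and Gpm6b shared Sox2 (r = 0.992 and 0.991), a transcription factor of neural and pituitary progenitors, and Ugt8a (0.992 and 0.990), with Kcnd3 (0.990) for Gpr22 and Fam181b (0.991) for Gpm6b. Sox2 read 8.29, 7.31 and 8.96 against 2.46 to 3.03. Anks1b was most like Il1rapl1 (0.991), 1500009C09Rik (0.990) and Slc39a12 (0.990), a zinc transporter gene. Fam107a had the loosest matches, with Gnal (0.950), Kcna2 (0.942) and Slc35f1 (0.938).

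After the mean of each site was subtracted, r followed the spread within the sites. The highest r were 0.844 for Gpr22 and Gpm6b, 0.828 for Gpm6b and Anks1b and 0.674 for Gpr22 and Anks1b over the 12 tumors, of which tumors 6, 7 and 8 carry most of the spread. For Fam107a r was 0.658 with Gpr22, 0.620 with Gpm6b, 0.603 with Car10 and 0.359 with Anks1b. Dscaml1 had r between -0.42 and -0.02 with the other 5. The closest genes on this scale were Grin3a (0.974) and Flrt2 (0.935) for Gpr22, Nr2f1 (0.948) and Zfp711 (0.945) for Gpm6b, and B3gat1 (0.971) and Tppp (0.956) for Anks1b. All 6 of these read lowest of the pituitary tumors in tumor 7, for example Nr2f1 with 8.60, 4.21 and 8.06 and Tppp, a tubulin-binding protein gene of oligodendrocytes, with 10.09, 4.68 and 9.09. Fam107a was closest to Clmn (0.898) and D930016D06Rik (0.897), Car10 to Kmt2a (0.880) and Tcof1 (0.878), and Dscaml1 to 2200002J24Rik (0.734) and Epha2 (0.722). Car10 and Dscaml1 hardly spread over the pituitary tumors (SD 0.14 and 0.12). Their r on this scale, also with the other members, thus mostly follows pancreatic signals at or below the array median. For Car10 the furthest of these was pancreatic tumor 5 (3.99).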

How the data were processed

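RNA of 12 tumors was measured on Affymetrix MG-430_2.0 arrays. Log2 signals, already normalized between arrays, were deposited by the authors and used as they stand. Partek Genomics Suite and RMA of the affy package are both named in the methods, and either could have made them. The Partek version was not given in the sources used here. Precision is limited by the number of arrays.

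Of 45101 probe sets, 64 controls were left out. In the platform annotation 34945 of the 45037 others carry 1 symbol, 932 several and 9160 none in the table used, and 34741 of the first kind matched RefSeq by Entrez identifier. Each of 18193 genes was read through its leading probe set, the one with the highest average of both group means among those with 1 symbol.

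The sites were compared by limma 3.58.1 (lmFit, eBayes; R 4.3.3), with p-values adjusted after Benjamini-Hochberg over all 45037 probe sets with a threshold of 0.05. The 6 genes were given no test between the sites, and Dixon's test was run on them only within the pancreatic tumors. Promoter windows came from RefSeq (GRCm38.p6) and were searched with Python 3.11.15.

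The 6 genes and the 18 lists (230 genes, 205 measured) were chosen with earlier results of these data known. The text names the 6 genes, their closest relatives, up to 4 passing genes of each list with the largest difference, and for each of the 6 genes the 3 genes with the highest r over the tumors and the 2 with the highest r within sites. A few values of other genes in tumors 5 and 7 were chosen after they had been seen. Lists cover proteolipids, carbonic anhydrases, other close relatives, orphan receptors, neurexins, postsynaptic density, immunoglobulin adhesion, glucocorticoid response, radial glia, astrocytes, oligodendrocytes, neurons, hypothalamic neurons, anterior pituitary, endocrine pancreas, acinar cells, leukocytes and endothelium. The first list had 1 measured gene, Gpm6a. Other settings tried were quantile or median scaling of the arrays, weights per array, limma's trend and robust options, an ANOVA without moderation, only probe sets above the median one, a minimum log2 difference of 1, averaged probe sets, and tumors left out (each in turn, 6 with 8, 10 to 12, and 2 to 4).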

Additional observations from a re-analysis of the deposited data

Results flagged for a closer look

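Dixon's test at the 5% level was run on the 9 pancreatic tumors at each of the 22 probe sets. It marked 2 values, and chance alone marks about 5% of such groups. For Car10 at 1424547_at, pancreatic tumor 5 read 3.99 and the next tumor 3.41, a gap of 0.516 of the range. For Anks1b at 1440944_at, pancreatic tumor 12 read 3.73 and the next tumor 3.20, a gap of 0.637 of the range. Both values were below the median of their arrays.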

How the results depend on the processing

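The main numbers of probe sets higher in pituitary tumors and of probe sets higher in pancreatic tumors were 1552 and 533. Array weights estimated by limma gave 3179 and 1849. The counts were 488 and 61 with pituitary tumors 6 and 8 left out, and 571 and 214 with pancreatic tumors 10, 11 and 12 left out. The unmoderated test gave 967 and the filter for brighter probe sets 926 higher in pituitary tumors. With each tumor left out in turn the counts ran from 656 to 2000 and from 172 to 886. They were 656 and 172 without tumor 6 and 760 and 180 without tumor 8, and 886 were higher in pancreatic tumors without tumor 2. Averaging over a gene leaves no count of probe sets.

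For the 6 members, whose choice fixes the direction, only sizes are compared. With every annotated probe set averaged, the difference of Dscaml1 was 1.05, the difference of Car10 3.26, the difference of Gpm6b 4.52 and the difference of Anks1b 2.49. With pituitary tumors 6 and 8 left out it was 3.89 for Gpr22, 5.49 for Gpm6b, 4.59 for Anks1b and 3.33 for Fam107a. Leaving out each tumor gave 5.02 to 5.13 for Dscaml1, 6.40 to 6.57 for Car10, 4.36 to 5.01 for the difference of Gpr22, 6.93 to 8.41 for Gpm6b, 5.54 to 6.84 for Anks1b and 5.05 to 7.31 for the difference of Fam107a.

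The difference of Dscam turned to 0.10 without pituitary tumor 8 (range -0.51 to 0.10 with each tumor left out) and to 0.038 with tumors 6 and 8 left out, which also turned the difference of Car11 to -0.047 and the difference of Gad1 to -0.11. Of the other results for single genes, 845 kept their side of the threshold, 123 lost a call and 6 gained one. Over all alternatives the number of genes higher in the pituitary tumors ran from 0 to 5 for the carbonic anhydrases, 2 to 12 for the orphan receptors, 0 to 8 for the neurexin group, 0 to 9 for the postsynaptic density, 3 to 13 for the adhesion genes, 0 to 8 for the glucocorticoid response, 1 to 4 for radial glia, 0 to 8 for astrocytes, 0 to 6 for oligodendrocytes, 1 to 7 for neurons and 9 to 13 for the anterior pituitary. The number of radial glia genes higher in the pancreatic tumors was 0 and became 1 in 10 of 23 alternatives. The causes were not tested. Signals near background limit the differences of all 6 genes from below. No paired analysis was possible because the labels do not give the mouse behind each tumor, so tumors of both sites may share a mouse.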

Other observations

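Of 12 radial glia genes, 3 were higher in the pituitary tumors and 0 in the pancreatic tumors by limma, with a median difference of 0.05. Over all genes these shares were 4.5% and 1.61%. The 3 genes were Slc1a3 (5.84, adjusted p = 0.0124), Sox2 (5.41, adjusted p = 2.09e-07) and Fabp7 (4.81, adjusted p = 0.00102). The call of Slc1a3 was lost without tumor 6 or 8. Pax6, a transcription factor gene of radial glia and of the endocrine pancreas, had a difference of -3.23 that missed the threshold (limma adjusted p = 0.0523).

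By the same test, 5 of 9 astrocyte markers (median difference 3.51), 1 of 8 oligodendrocyte markers (2.04) and 2 of 11 neuron markers (2.14) were higher in the pituitary tumors. The share over all genes was 4.5%. The neuron markers were Gad1 (5.80, adjusted p = 0.0367), the enzyme that makes GABA, which read 11.32, 3.05 and 12.52 in tumors 6, 7 and 8, and Slc17a6 (4.72, adjusted p = 2.14e-06), a vesicular glutamate transporter, which read 9.52, 8.53 and 9.39. The oligodendrocyte marker was Mobp, which read 12.33, 3.37 and 11.10. With each tumor left out in turn, the call of Gad1 was lost in 10 of 12 fits (limma adjusted p up to 0.218) and that of Mobp in 8 (up to 0.199). The 13 of 18 anterior pituitary markers that passed were led by Prl (9.69), Gh (8.82), Cga (7.62) and Six6 (5.62), with a median of 2.87 over the list.

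Endocrine pancreas markers were higher in the pancreatic tumors at 7 of 10 genes (median difference -4.77), led by Hhex (-6.66), Gcg (-6.53), Pdx1 (-5.39) and Ins2 (-5.07). Over all genes 1.61% were higher in the pancreatic tumors. The call of Ins2 was lost without tumor 6 or 8 (limma adjusted p up to 0.0753). Of 6 acinar markers 1 passed, Cela1 (-3.91), with a median of -2.91. By limma 0 of 8 hypothalamic neuron markers, 0 of 6 leukocyte markers and 0 of 5 endothelial markers passed, with 2, 0 and 2 at an unadjusted p under 0.05 and median differences of 0.25, -0.08 and -0.81.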
